A study of Homo sapiens with 12 samples.

Results

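Messenger RNA of 10 genes that rebuild and silence chromatin behind the replication fork was examined in a human melanoma cell line, SK-mel147, after knockdown of the histone variant genes H2AZ2 or H2AZ1. The genes were taken from a list of 3 functions: histone deposition during replication (CHAF1A, CHAF1B, ASF1A, ASF1B), maintenance of DNA methylation (UHRF1, DNMT1, HELLS) and Polycomb repressive complex 2, PRC2 (EZH2, SUZ12, EED). All 10 were found among the 18417 genes measured, each read from its brightest probe set among those that name 1 gene. Every cell population had received a lentiviral short hairpin RNA, and the 12 Affymetrix arrays comprise 6 hairpins with 2 arrays each. Hairpins sh_37 and sh_38 are directed at H2AZ2, sh_83 and sh_84 at H2AZ1, and the controls are a scrambled and a luciferase hairpin. The cells grew in DMEM with serum, and total RNA was hybridised. The series' title gives proliferation and drug sensitivity of melanoma as its subject. Each value is a log2 expression level on 1 array, as deposited.

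The labels limit the groups in several ways. They call the reagents siRNA in the titles and lentiviral shRNA in the protocol, and the second array of sh_84 carries that name in its title but another hairpin's in a further field; the title was followed. Whether replicates are separate cultures is not said, so that the tests weigh array-to-array spread, which may be technical only. Relative to the controls, sh_37 left 46.1% and sh_38 65.4% of the H2AZ2 signal. In the same arrays H2AZ1 was at 86.2% and 90.5%, changes that did not pass the test (limma adjusted p = 0.19 and 0.396). All 4 of these arrays lay below the 4 controls for H2AZ1, as did those of 7.46% of all genes. H2AZ1 stood at 19.3% with sh_83, but at 92% in the arrays labelled sh_84, whose log2 change of -0.12 did not pass the test (limma adjusted p = 0.859). Results for the H2AZ1 knockdown therefore rest on sh_83, a pair of arrays of 1 hairpin, and the arrays labelled sh_84 are given beside them.

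When DNA is copied, the old nucleosomes are split between the daughter strands and new ones are added. Chromatin assembly factor 1, whose large and middle subunits are CHAF1A and CHAF1B, places new histones H3 and H4 on the daughter DNA, and it receives them from the chaperones ASF1A and ASF1B. UHRF1 reads hemimethylated CpG sites left by the fork and brings in DNMT1, the enzyme that methylates the new strand, while the remodelling ATPase HELLS opens the nucleosomes for it. PRC2 methylates lysine 27 of histone H3: EZH2 is its catalytic subunit, SUZ12 holds the core together, and EED binds the mark and passes it on to neighbouring nucleosomes. Transcripts of most of these genes peak around S phase in dividing cells, and E2F factors, which bind near the start site of S-phase genes, are known activators of many of them.

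Sequences just before the start sites are shown for 4 members, chosen because they span the responses found below: UHRF1, whose fall passed the test with both H2AZ2 hairpins, HELLS, which stood as low with both but varied between replicates, ASF1B, whose fall differed in size between those hairpins, and ASF1A, which did not follow the others. Each is the 250 bases upstream of an annotated start in RefSeq (GRCh38.p14), written 5′ to 3′ on the gene's strand, with matches to 3 kinds of word in capitals. The words searched on both strands were TTTCCCGC, TTTCGCGC, TTTGCCGC and TTTGGCGC (the core of E2F sites), CCAAT (the core of NF-Y sites), and TTTGAA and TTCGAA (the core of cell cycle homology regions).
HELLS, chr10:94545538-94545787, plus strand: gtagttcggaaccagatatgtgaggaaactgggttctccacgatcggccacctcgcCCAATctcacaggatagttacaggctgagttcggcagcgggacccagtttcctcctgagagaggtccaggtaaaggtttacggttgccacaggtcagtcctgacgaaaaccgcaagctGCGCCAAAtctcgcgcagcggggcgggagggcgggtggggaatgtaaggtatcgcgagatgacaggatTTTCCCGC
UHRF1, chr19:4909251-4909500, plus strand: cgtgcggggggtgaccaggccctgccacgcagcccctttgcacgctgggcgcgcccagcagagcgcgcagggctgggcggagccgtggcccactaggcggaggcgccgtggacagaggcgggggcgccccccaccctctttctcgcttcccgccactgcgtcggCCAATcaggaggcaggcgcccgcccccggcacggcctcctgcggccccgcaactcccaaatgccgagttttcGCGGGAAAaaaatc
ASF1B, chr19:14136590-14136839, minus strand: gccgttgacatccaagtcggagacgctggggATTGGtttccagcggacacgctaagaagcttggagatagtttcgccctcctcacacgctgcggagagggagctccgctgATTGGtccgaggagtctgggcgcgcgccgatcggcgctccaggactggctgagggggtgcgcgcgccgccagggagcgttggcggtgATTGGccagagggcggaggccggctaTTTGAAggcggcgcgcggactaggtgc
ASF1A, chr6:118893902-118894151, plus strand: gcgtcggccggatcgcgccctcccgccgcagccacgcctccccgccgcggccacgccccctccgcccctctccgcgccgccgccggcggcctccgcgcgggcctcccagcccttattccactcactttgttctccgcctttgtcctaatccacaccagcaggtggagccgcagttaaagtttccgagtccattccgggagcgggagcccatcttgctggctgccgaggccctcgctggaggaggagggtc
In HELLS the E2F words lie 76 and 8 bases before the start, and in this UHRF1 window the E2F word lies 14 bases before it. ASF1B has no E2F word here, but 3 CCAAT words and a TTTGAA 27 bases before the start, and ASF1A has none of the words. Neither have CHAF1B and DNMT1, whose windows are not shown, while CHAF1A, EZH2 and EED have CCAAT but no E2F word. So a lack of these words does not set ASF1A apart from members that fell. All 10 members matched the table, with 13 windows in all since UHRF1 has 3 starts and EZH2 has 2. E2F words stood in 4 of the 13 windows (2 of UHRF1 and 1 each of HELLS and SUZ12), compared with 2.8% of all 35116 windows of this length. CCAAT stood in 8 windows of 7 members, compared with 32% of all windows, and the cell cycle homology words in 2 (ASF1B and SUZ12), compared with 14.3%. A match is a description of these letters and no measure of binding.

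The arrays themselves were close to each other, with median correlations to the other arrays between 0.9887 and 0.9944. SOX10, a defining transcription factor of the melanocyte lineage, had 10.23 to 10.80 over the 12 arrays (91.4 as a percentile of all genes in the controls), and MITF, the factor that drives pigment genes, had 8.14 to 8.40 (59.3). The pigment genes PMEL (5.53 to 5.86), MLANA (4.80 to 5.30) and TYR (4.66 to 5.10) stood at percentiles of 16.8, 9.7 and 7.3, near the bottom of the range; probe sets differ in brightness, so these ranks are rough. Of the melanocyte markers 1 of 13 passed the test over both H2AZ2 hairpins (PAX3, log2 change -0.49, SE 0.11, limma adjusted p = 0.0265), a call lost without any 1 of 5 arrays (scrambled replicate 1, both luciferase arrays, sh_37 replicate 2, sh_38 replicate 2; adjusted p = 0.052 to 0.159). None of 9 keratinocyte, 10 fibroblast, 8 endothelial or 9 leukocyte markers passed over both hairpins, where 2.44% of all genes fell and 0.863% rose. With sh_37 alone 1 keratinocyte marker (FLG) and 2 fibroblast markers (LUM and COL1A1) rose while 2 melanocyte and 2 leukocyte markers fell, where 5.72% of all genes rose and 7.19% fell. The melanocyte count ran from 0 to 3 over 22 alternatives and was 0 without either sh_37 array. With sh_38 alone 1 melanocyte marker (PAX3) and 1 fibroblast marker (LUM) passed, PAX3 lower and LUM higher, where 3.33% of all genes fell and 1.28% rose. LUM had 9.22 and 9.17 with sh_38, against 8.46 and 8.41 with the scrambled and 9.14 and 9.25 with the luciferase hairpin, so its sh_38 arrays lay above the scrambled arrays and within the range of the luciferase arrays. The mean log2 level of the fibroblast markers was 6.10 to 6.28 on H2AZ2 arrays and 5.90 to 6.08 on control arrays, and the part of such cells or states in the results below was not tested. The mean level of 192 small nucleolar RNA genes ran between 6.68 and 7.17 over the arrays; results refitted with it as a covariate are given below.

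Of the 10 genes, 9 stood at 56.9% to 82.8% of their control level with sh_37, and with sh_38 at 64.3% to 82.6%. ASF1A, at 100.6% with sh_37 and 90.9% with sh_38, was the exception. With sh_37, 6 of the 10 fell (CHAF1A, CHAF1B, ASF1B, UHRF1, DNMT1, EZH2) and none rose, in a fit in which 7.19% of all genes fell and 5.72% rose. With sh_38, 5 fell (CHAF1A, CHAF1B, ASF1B, UHRF1, EZH2) and none rose, where 3.33% of all genes fell and 1.28% rose. The median change of the 10 was -0.49 with sh_37 and -0.37 with sh_38, while the medians of all genes were 0.01 and 0.03. These comparisons share the 4 control arrays, so they are not independent of each other. In the fit over targets, in which the hairpin is a random block, 5 of the 10 fell (CHAF1A, CHAF1B, ASF1B, UHRF1, EZH2), where 2.44% of all genes fell and 0.863% rose, and the median change of the 10 was -0.46 beside 0.03 for all genes. Since bulk RNA was measured, fewer cells in S phase and less of these RNAs per cell cannot be told apart.

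The counts rest on few arrays. The 6 calls of sh_37 stood at 4 to 7 when any 1 of the 12 arrays was left out, and the 5 of sh_38 at 0 to 7, with none left without replicate 2 of sh_38. In the fit over targets no member passed against either control hairpin alone, where 14 (scrambled) and 43 (luciferase) of all genes passed. CHAF1A then stood at -0.54 and -0.51, and CHAF1B at -0.59 with either control. Without scrambled replicate 1 or without luciferase replicate 2, 2 members (CHAF1A and CHAF1B) passed, where 66 and 235 of all genes did. With all arrays 609 of all genes passed. How the counts over all genes moved with sh_37 and sh_38 is given at the end.

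**Figure D1:**
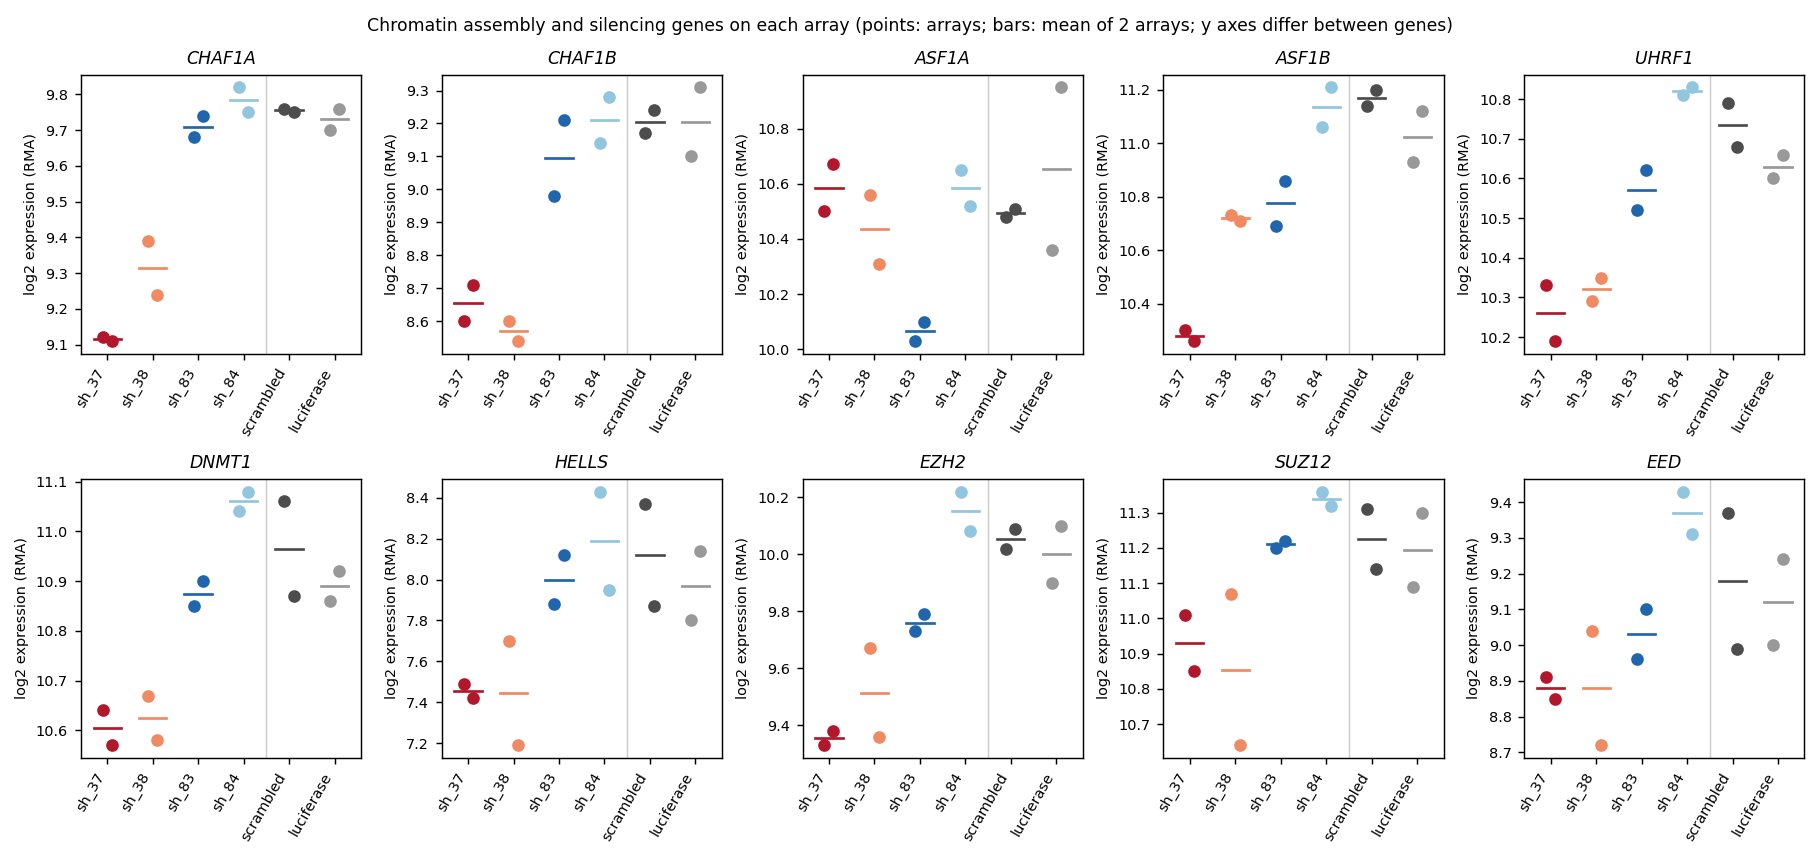
Log2 expression of the 10 genes on each of the 12 arrays, a panel per gene and a column per hairpin, with sh_37, sh_38, sh_83 and sh_84 left of the scrambled and luciferase controls; points are arrays and bars the mean of 2. CHAF1A and CHAF1B on the 4 H2AZ2 arrays lie below all other arrays, while ASF1A is lowest with sh_83 (10.03 and 10.10).

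CHAF1A, the large subunit of chromatin assembly factor 1, had 9.12 and 9.11 with sh_37, 9.39 and 9.24 with sh_38, 9.68 and 9.74 with sh_83, and 9.82 and 9.75 in arrays labelled sh_84, against 9.76, 9.75, 9.70 and 9.76 in the controls. All 4 H2AZ2 arrays lay below all 8 others. The gene was at 64.7% of its control level with sh_37 (log2 change -0.63, SE 0.07, limma adjusted p = 0.000361) and, with sh_38, at 74.5% (log2 change -0.42, SE 0.07, limma adjusted p = 0.00985). Over both hairpins the log2 change was -0.53 (SE 0.08, limma adjusted p = 0.00546). Its controls were the tightest of the 10 genes, with an average of 9.22 ± 0.13 in H2AZ2 arrays and 9.74 ± 0.03 in control arrays (SD, n = 4 each).

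CHAF1B, the middle subunit, was lower on the same arrays. It had 8.60 and 8.71 with sh_37, 8.60 and 8.54 with sh_38, 8.98 and 9.21 with sh_83, and 9.14 and 9.28 in arrays labelled sh_84, against 9.17, 9.24, 9.10 and 9.31 in the controls. Again the H2AZ2 arrays lay below all others. The log2 change was -0.55 with sh_37 (SE 0.10, limma adjusted p = 0.00366) and -0.64 with sh_38 (SE 0.10, limma adjusted p = 0.00497), or 68.4% and 64.3% of the control level, and -0.59 over both (SE 0.09, limma adjusted p = 0.00546). The call with sh_37 was lost without sh_37 replicate 1 (adjusted p = 0.0624), and those of CHAF1A and CHAF1B with sh_38 were lost without sh_38 replicate 2 (adjusted p = 0.152 and 0.071). The third subunit of the factor is RBBP4, a histone-binding protein that also serves PRC2 and deacetylase complexes; it had 11.46 ± 0.03 in H2AZ2 arrays and 11.55 ± 0.11 in control arrays (SD, n = 4 each; log2 difference -0.09, SE 0.07, limma adjusted p = 0.557). RBBP4, its relative RBBP7 (log2 difference -0.17, limma adjusted p = 0.219) and PCNA, the sliding clamp that brings the factor to the fork (log2 difference -0.36, SE 0.09, limma adjusted p = 0.0535), were added after their values were seen. Without sh_38 replicate 1, PCNA passed (-0.42, adjusted p = 0.0298).

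Of the pair of ASF1 chaperones, ASF1B passed the test with both H2AZ2 hairpins and ASF1A with neither; the difference between these genes was not tested. ASF1B, the form made mainly in dividing cells, had 10.30 and 10.26 with sh_37, 10.73 and 10.71 with sh_38, 10.69 and 10.86 with sh_83, and 11.06 and 11.21 in arrays labelled sh_84, against 11.14, 11.20, 10.93 and 11.12 in the controls. The 6 arrays of sh_37, sh_38 and sh_83 lay below the 4 controls, with sh_37 the lowest and sh_38 and sh_83 overlapping. ASF1B showed the largest change of the 10 genes with sh_37, to 56.9% of the control level (log2 change -0.81, SE 0.09, limma adjusted p = 0.000194), and stood at 77% with sh_38 (log2 change -0.38, SE 0.09, limma adjusted p = 0.0348). The call with sh_38 was lost without any 1 of 8 arrays (scrambled replicate 1, luciferase replicate 2 and each array of sh_37, sh_38 and sh_83; adjusted p = 0.052 to 0.262). In the fit over targets the log2 change was -0.60 (SE 0.13, limma adjusted p = 0.0308), and it no longer passed without scrambled replicate 1 (0.119), luciferase replicate 2 (0.0736), sh_37 replicate 1 (0.0669) or sh_37 replicate 2 (0.08). That fit takes the same correlation within a hairpin for all genes (0.157). ASF1B lay closer within each H2AZ2 hairpin than between them, so this SE may understate the spread between hairpins.

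ASF1A, the form made through the whole cycle, had 10.50 and 10.67 with sh_37, 10.56 and 10.31 with sh_38, 10.03 and 10.10 with sh_83, and 10.65 and 10.52 in arrays labelled sh_84, against 10.48, 10.51, 10.36 and 10.95 in the controls. Its H2AZ2 arrays overlapped the controls, at log2 changes of 0.01 with sh_37 and -0.14 with sh_38 (limma adjusted p = 0.984 and 0.585). Only the sh_83 arrays lay below all controls, at 70.1% of their level, and that change missed the threshold (log2 change -0.51, SE 0.14, limma adjusted p = 0.184). Without luciferase replicate 1, the control array at 10.36, the sh_83 change was -0.66 (SE 0.10, limma adjusted p = 0.0384).

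UHRF1, the reader of hemimethylated CpG sites, had 10.33 and 10.19 with sh_37, 10.29 and 10.35 with sh_38, 10.52 and 10.62 with sh_83, and 10.81 and 10.83 in arrays labelled sh_84, against 10.79, 10.68, 10.60 and 10.66 in the controls. The H2AZ2 arrays lay below all others and their hairpins overlapped. The log2 change was -0.42 with sh_37 (SE 0.08, limma adjusted p = 0.00469) and -0.37 with sh_38 (SE 0.08, limma adjusted p = 0.0241), or 74.5% and 77.5% of the control level. Over both hairpins it was -0.40 (SE 0.09, limma adjusted p = 0.0275), a call lost without scrambled replicate 1, luciferase replicate 2 or sh_37 replicate 2 (adjusted p = 0.0575 to 0.145) or with the small nucleolar RNA level as a covariate (adjusted p = 0.0646). The call was lost without sh_37 replicate 2 in sh_37 (adjusted p = 0.0879) and, in sh_38, without scrambled replicate 1, luciferase replicate 2 or either sh_38 array (adjusted p = 0.0602 to 0.143). UHRF1 is the only member with a second probe set, which did not follow the first: it averaged 6.61 ± 0.11 in H2AZ2 arrays and 6.58 ± 0.27 in control arrays (SD, n = 4 each). With the mean of both probe sets no UHRF1 change passed the test (log2 change -0.24 with sh_37 and -0.12 with sh_38).

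DNMT1, the maintenance methyltransferase, had 10.64 and 10.57 with sh_37, 10.67 and 10.58 with sh_38, 10.85 and 10.90 with sh_83, and 11.04 and 11.08 in arrays labelled sh_84, against 11.06, 10.87, 10.86 and 10.92 in the controls. The H2AZ2 arrays lay below all others, by a similar step with either hairpin. The change passed with sh_37 (log2 change -0.32, SE 0.08, limma adjusted p = 0.0225) and missed the threshold with sh_38 (log2 change -0.30, SE 0.08, limma adjusted p = 0.0596) and over both hairpins (log2 change -0.31, SE 0.08, limma adjusted p = 0.0515). The call with sh_37 was lost without scrambled replicate 1, luciferase replicate 2 or either sh_37 array (adjusted p = 0.0527 to 0.213). DNMT1 passed without scrambled replicate 2 with sh_38 (0.0286) and over both hairpins (0.0427), and over both without sh_83 replicate 1 (0.045).

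HELLS, the remodeller, had 7.49 and 7.42 with sh_37, 7.70 and 7.19 with sh_38, 7.88 and 8.12 with sh_83, and 8.43 and 7.95 in arrays labelled sh_84, against 8.37, 7.87, 7.80 and 8.14 in the controls. All 4 H2AZ2 arrays lay below all others, but replicates of sh_38, sh_84 and both controls were far apart. HELLS was at 66.6% of its control level with sh_37 (log2 change -0.59, SE 0.19, limma adjusted p = 0.0726) and, with sh_38, at 65.9% (log2 change -0.60, SE 0.19, limma adjusted p = 0.11), so changes of about the size of those of CHAF1B missed the threshold, as did that over both hairpins (log2 change -0.59, SE 0.17, limma adjusted p = 0.072). Without scrambled replicate 2 it passed with sh_37 (0.0277), sh_38 (0.0401) and over both hairpins (0.0456); with sh_37 it also passed without either sh_38 array (0.0468), and over both hairpins without sh_84 replicate 1 (0.0494).

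EZH2, the catalytic subunit of PRC2, had 9.33 and 9.38 with sh_37, 9.67 and 9.36 with sh_38, 9.73 and 9.79 with sh_83, and 10.22 and 10.08 in arrays labelled sh_84, against 10.02, 10.09, 9.90 and 10.10 in the controls. The 4 H2AZ2 arrays and the 2 of sh_83 lay below the controls, with sh_38 replicate 1 close to sh_83. EZH2 was at 62.9% of its control level with sh_37 (log2 change -0.67, SE 0.10, limma adjusted p = 0.00151) and, with sh_38, at 70.2% (log2 change -0.51, SE 0.10, limma adjusted p = 0.0173). Over both hairpins the log2 change was -0.59 (SE 0.12, limma adjusted p = 0.0185). The call with sh_38 was lost without sh_38 replicate 2 (0.247) or luciferase replicate 2 (0.057), and that over both without scrambled replicate 1 (0.0931) or luciferase replicate 2 (0.0526).

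SUZ12, the scaffold, had 11.01 and 10.85 with sh_37, 11.07 and 10.64 with sh_38, 11.20 and 11.22 with sh_83, and 11.36 and 11.32 in arrays labelled sh_84, against 11.31, 11.14, 11.09 and 11.30 in the controls. Its H2AZ2 arrays lay below all others by a narrow margin, at log2 changes of -0.28 with sh_37 and -0.35 with sh_38 (limma adjusted p = 0.176 and 0.134). Without sh_38 replicate 1 the sh_38 change was -0.57 (limma adjusted p = 0.0261). EED, which binds the mark, had 8.91 and 8.85 with sh_37, 9.04 and 8.72 with sh_38, 8.96 and 9.10 with sh_83, and 9.43 and 9.31 in arrays labelled sh_84, against values between 8.99 and 9.37 in the 4 controls. Its H2AZ2 and control arrays overlapped, at log2 changes of -0.27 with sh_37 and -0.28 with sh_38 (limma adjusted p = 0.224 and 0.257). Over both hairpins SUZ12 was at -0.32 (SE 0.11, limma adjusted p = 0.139) and EED at -0.27 (SE 0.13, limma adjusted p = 0.294). SUZ12 also has a partial pseudogene copy, which its probes could read as well. SUZ12 and EED stood at 78.4% to 82.8% of the control level with either hairpin; whether the PRC2 subunits differ from each other was not tested. With the small nucleolar RNA level as a covariate, the sh_38 change of EED was -0.04 and that of SUZ12 -0.18, and over both hairpins they were at -0.14 and -0.23 (limma adjusted p = 0.667 and 0.358).

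**Figure D2:**
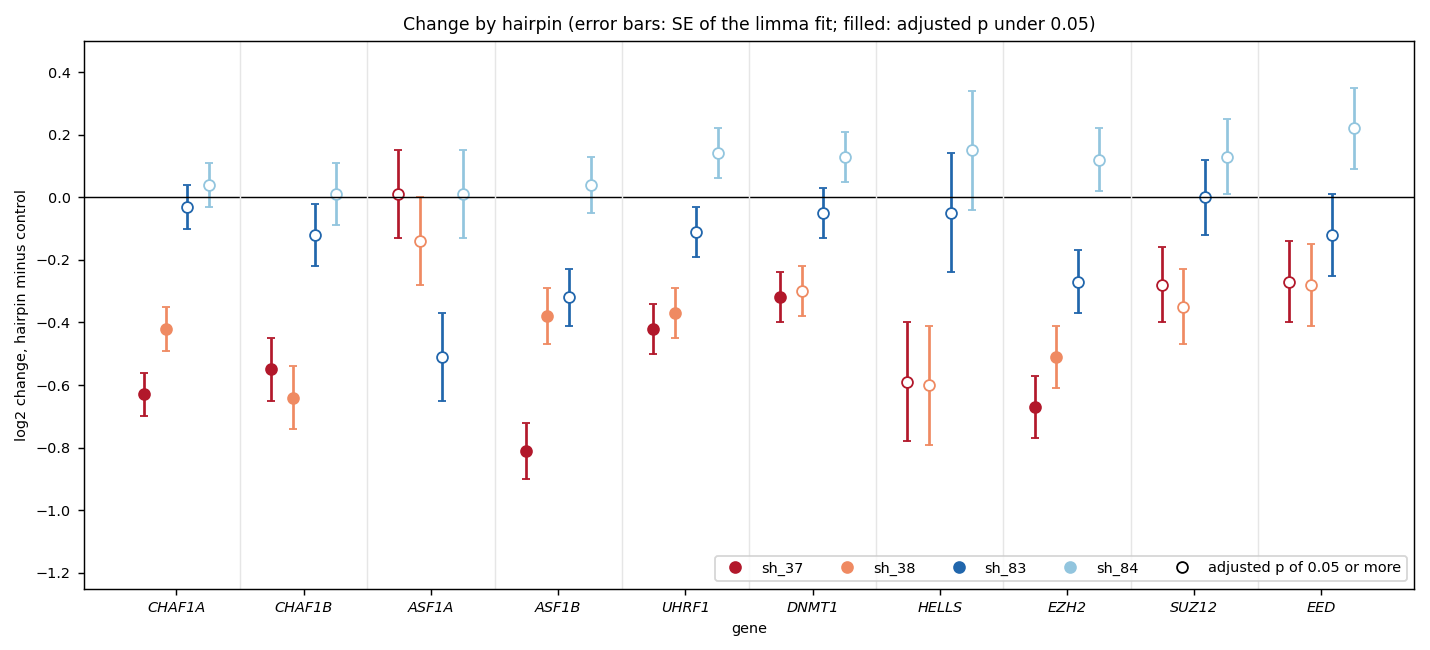
Log2 change of each of the 10 genes against the mean of both control hairpins, by hairpin, with bars for the SE of the limma fit; filled points passed at an adjusted p under 0.05. With sh_37 6 points are filled and with sh_38 5, all below 0, while with sh_83 or sh_84 none is filled.

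By separation of the arrays, without a model, 8 of the 10 genes had all 4 H2AZ2 arrays below all 4 control arrays (the exceptions were ASF1A and EED), as did 7.46% of all genes. With sh_37 alone it was 9 genes, where 17.2% of all genes were so separated, and with sh_38 alone 8, where 12.8% were.

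Whether the H2AZ2 hairpins differ from each other and from sh_83 was tested directly. Between sh_37 and sh_38, 1 of the 10 differed: ASF1B was lower with sh_37 (log2 difference -0.44, SE 0.10, limma adjusted p = 0.0268), in a contrast in which 2.20% of all genes were lower and 4.07% higher. This call was lost without any 1 of the 4 arrays of sh_37 and sh_38 (adjusted p = 0.101 to 0.166). CHAF1A differed by -0.20 (limma adjusted p = 0.243) and the other 8 by -0.16 to 0.15, while H2AZ2 itself was lower with sh_37 by -0.50 (SE 0.09, limma adjusted p = 0.00763). Against sh_83, the mean of sh_37 and sh_38 was lower for CHAF1A (log2 difference -0.49, SE 0.07, limma adjusted p = 0.00419) and CHAF1B (log2 difference -0.48, SE 0.10, limma adjusted p = 0.017), 2 of the 10, where 2.38% of all genes were lower and 2.85% higher.

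Of the others, UHRF1 differed from sh_83 by -0.28 (SE 0.08, limma adjusted p = 0.0646), DNMT1 by -0.26, EZH2 by -0.32, ASF1B by -0.27, HELLS by -0.55, SUZ12 by -0.32 and EED by -0.16, with adjusted p between 0.0646 and 0.688. ASF1A differed in the opposite direction (log2 difference 0.45, SE 0.14, limma adjusted p = 0.114). At an unadjusted p under 0.05, 9 of the 10 differed, as did 3115 of all genes. CHAF1A was lost without either sh_83 array (adjusted p = 0.0522 and 0.0889), and CHAF1B without sh_37 replicate 1 (0.065), sh_83 replicate 1 (0.0564) or sh_83 replicate 2 (0.264). ASF1A passed without either luciferase array (0.0281), and without sh_38 replicate 1 so did EZH2 (-0.40, adjusted p = 0.0348) and SUZ12 (-0.43, adjusted p = 0.0355).

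**Figure D3:**
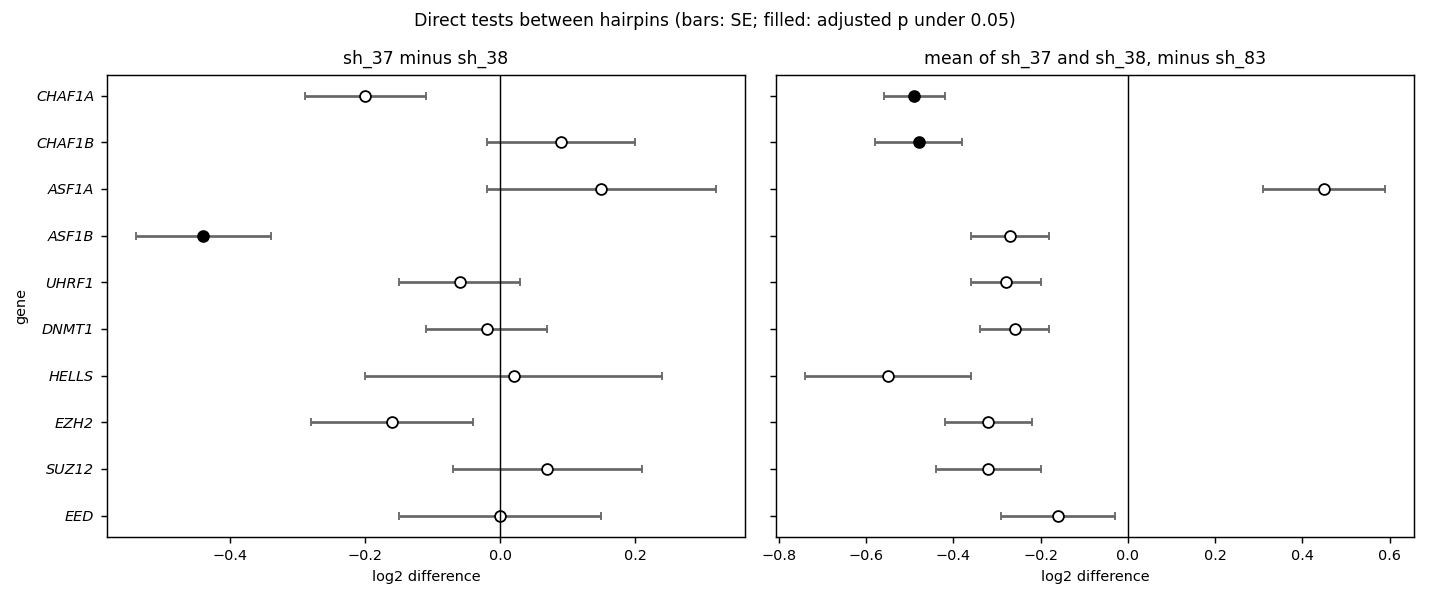
Log2 difference of each gene, with bars for the SE, for sh_37 minus sh_38 and for the mean of sh_37 and sh_38 minus sh_83; filled points passed at an adjusted p under 0.05. ASF1B is the filled point in the contrast of sh_37 and sh_38 (-0.44), and CHAF1A (-0.49) and CHAF1B (-0.48) in the contrast with sh_83, where ASF1A alone lies above 0.

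With the H2AZ1 hairpin sh_83, none of the 10 passed the test in limma, where 0.489% of all genes fell and 0.152% rose. The median change was -0.11, and 3 genes had an unadjusted p under 0.05, as did 1878 of all genes. These 3 were ASF1A, ASF1B (log2 change -0.32, SE 0.09, unadjusted p = 0.00376, limma adjusted p = 0.168) and EZH2 (log2 change -0.27, SE 0.10, limma adjusted p = 0.384), the same that had both sh_83 arrays below the 4 controls, as did 10.9% of all genes. CHAF1A (97.9% of the control level), DNMT1 (96.6%), HELLS (96.8%) and SUZ12 (100.3%) lay close to the controls. Of the alternatives, 2 gave 1 call each: ASF1B passed with a variance trend and robust moderation (adjusted p = 0.0437), and ASF1A without luciferase replicate 1 (adjusted p = 0.0384). In the arrays labelled sh_84 none passed either, where 0.342% of all genes fell and 0.0109% rose, and none had an unadjusted p under 0.05, as 1540 of all genes did; all 10 changes lay above 0, by 0.01 to 0.22. There, no member had both arrays below the controls (9.53% of all genes did) and 2, UHRF1 and SUZ12, had both above (4.76% did). Over both H2AZ1 hairpins no member passed in limma and 0.00% of all genes did (at an unadjusted p under 0.05, no member and 636 of all genes), with member changes of -0.25 to 0.07, and no member had all 4 arrays below the controls (2.58% of all genes did). The control hairpins (scrambled minus luciferase) differed by -0.16 to 0.15 for the members, with 9 of the 10 above 0. None passed in limma, as 0.00% of all genes did (at an unadjusted p under 0.05, no member and 1384 of all genes).

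Replicates of a hairpin differed for several members in step with the small nucleolar RNA level. Between replicate 1 and replicate 2 that level differed by 0.02 with sh_37, 0.24 with sh_38, -0.10 with sh_83, and 0.23 in those labelled sh_84, and by 0.30 in the scrambled and -0.08 in the luciferase pair. HELLS differed by 0.07, 0.51, -0.24 and 0.47 in the same order, and by 0.50 in the scrambled and -0.34 in the luciferase pair. The sign was the same as that of the small nucleolar RNAs in 6 of 6 hairpins for HELLS, EED, SUZ12 and CHAF1A, in 5 for DNMT1, in 4 for ASF1A, ASF1B, UHRF1 and EZH2, and in 3 for CHAF1B. The part of this RNA class in the result was not tested, but the changes were refitted with its level as a covariate. HELLS then had a log2 change of -0.41 with sh_37 (SE 0.08, limma adjusted p = 0.00235) and of -0.20 with sh_38 (SE 0.09, limma adjusted p = 0.314), and its difference from sh_83 was -0.52 (SE 0.07, limma adjusted p = 0.000694). The same refit moved the control hairpins apart for HELLS, to 0.66 (scrambled minus luciferase, SE 0.11, limma adjusted p = 0.266) from 0.15 without the covariate. For the other members that difference was 0.0 (ASF1A) to 0.36 (EED). UHRF1 with sh_38 was then at -0.34 (adjusted p = 0.0626), ASF1B at -0.39 (0.0546) and EZH2 at -0.41 (0.053), so that CHAF1A and CHAF1B were the 2 members that passed with sh_38. Against sh_83, 8 members passed with the covariate and 2 without it, while calls among all genes went from 964 to 2018. Of the 8, ASF1A was higher than with sh_83 (log2 difference 0.46, limma adjusted p = 0.0311) and the others were lower.

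**Figure D4:**
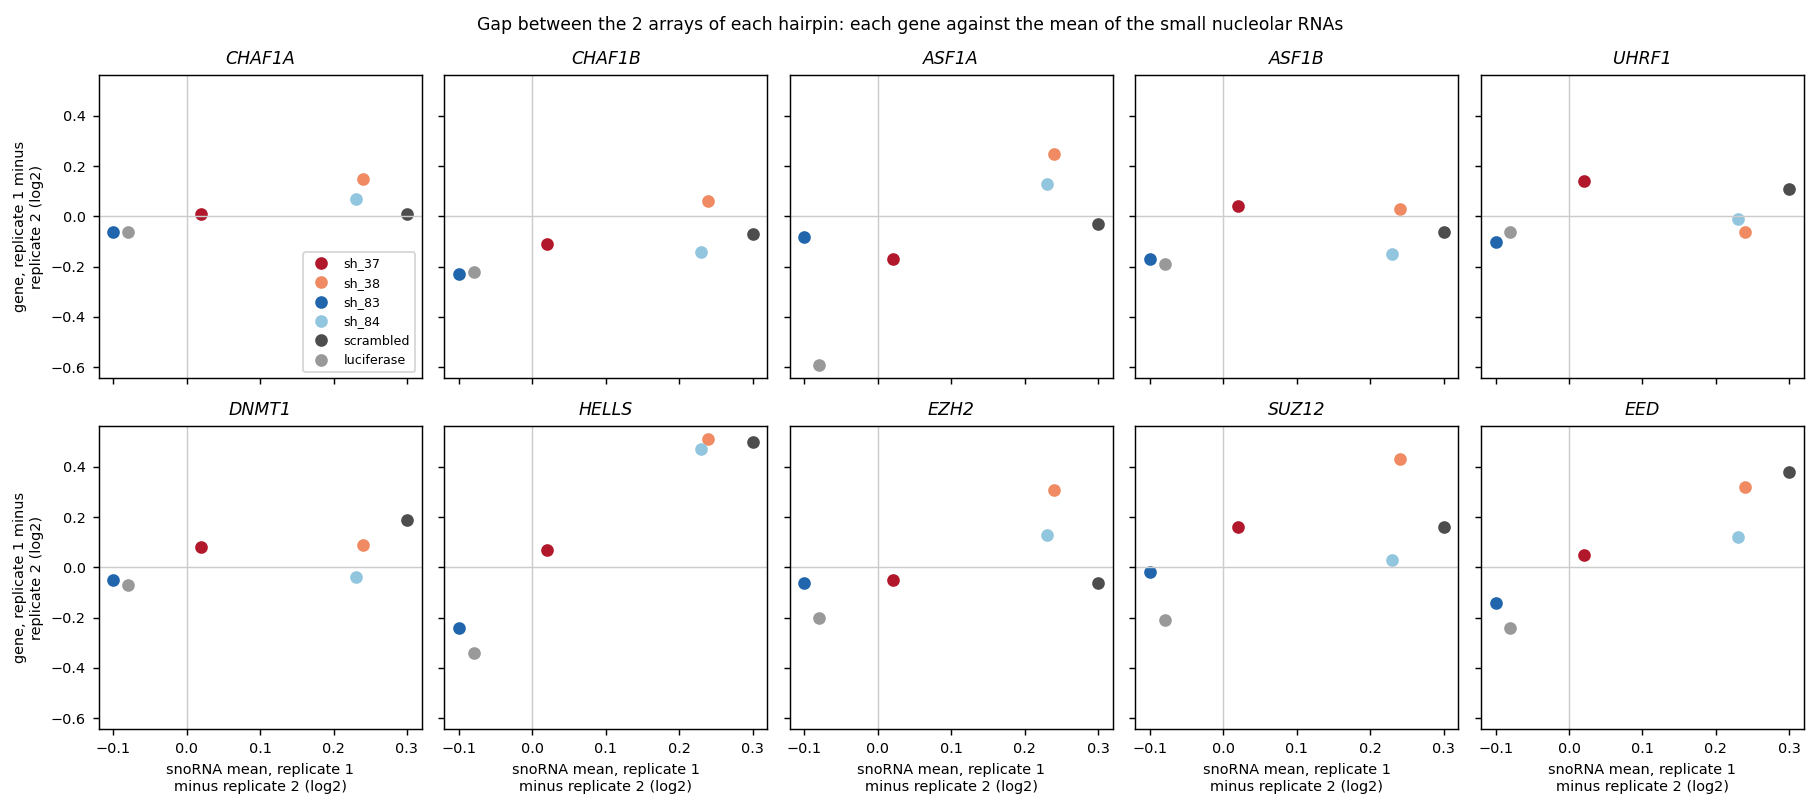
Difference between replicate 1 and replicate 2 of each hairpin in log2 expression of each gene (vertical axis) against the same difference in the mean of 192 small nucleolar RNA genes (horizontal axis). HELLS runs from -0.34 in the luciferase pair to 0.51 in the sh_38 pair, and CHAF1A, CHAF1B and ASF1B stay closer to 0.

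Relatives of the members that act largely outside replication were compared with them. EZH1, the alternative catalytic subunit of PRC2, had a log2 difference between H2AZ2 and control arrays of -0.25 (SE 0.14, limma adjusted p = 0.389) and UHRF2 of -0.23 (SE 0.11, limma adjusted p = 0.337). The enzymes that set methylation on unmethylated DNA gave 0.12 for DNMT3A (SE 0.08, limma adjusted p = 0.443) and 0.00 for DNMT3B (SE 0.08, limma adjusted p = 0.981). None of the 4 passed the test; differences between them and the members were not tested.

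Partners of each function were taken from lists. Of 24 other histone chaperones, 5 fell with the H2AZ2 hairpins and none rose, with a list median of -0.14 beside 0.03 for all genes, and 8 fell with sh_37, 3 with sh_38 and none with sh_83. Of all genes, 2.44% fell over both H2AZ2 hairpins, 7.19% with sh_37, 3.33% with sh_38 and 0.489% with sh_83. Over 22 alternatives the count ran from 4 to 10 with sh_37 and from 1 to 5 with sh_38. MMS22L, which with its partner TONSL guards new chromatin at damaged forks, had 7.50 ± 0.34 in H2AZ2 arrays and 8.30 ± 0.18 in control arrays (SD, n = 4 each; log2 difference -0.80, SE 0.18, limma adjusted p = 0.0265). The others were DNAJC9, a co-chaperone of H3 and H4 (-0.54, SE 0.12, adjusted p = 0.0266), MCM2, the helicase subunit that holds parental H3 and H4 at the fork (-0.54, SE 0.09, adjusted p = 0.0105), NASP, which keeps a soluble store of H3 and H4 (-0.48, SE 0.10, adjusted p = 0.0179), and HJURP, which places the centromeric variant CENP-A (-0.41, SE 0.10, adjusted p = 0.0351; named after its value was seen). All 5 calls were lost without scrambled replicate 1 (adjusted p = 0.0723 for MCM2 to 0.142 for MMS22L). Some were also lost without other arrays: MMS22L without luciferase replicate 1 or 2, sh_37 replicate 2 or sh_38 replicate 2, DNAJC9 without either luciferase or either sh_38 array, NASP without luciferase replicate 2, and HJURP without scrambled replicate 2, luciferase replicate 2 or either sh_37 array (adjusted p = 0.0505 to 0.0923). With the small nucleolar RNA level as a covariate MMS22L (-0.64, adjusted p = 0.0605) and DNAJC9 (-0.51, adjusted p = 0.0614) did not pass.

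Of 20 other genes of DNA methylation and its removal, 3 fell and none rose, with a median of -0.10. Of all genes 2.44% fell and 0.863% rose in this fit. The largest falls were in CDCA7, the partner that HELLS needs as an active remodeller, with 7.86 ± 0.15 in H2AZ2 arrays and 8.64 ± 0.11 in control arrays (SD, n = 4 each; log2 difference -0.77, SE 0.13, limma adjusted p = 0.0098), and its relative CDCA7L (-0.81, SE 0.12, limma adjusted p = 0.00482). The methyl-CpG reader MBD2 was the third (-0.27, SE 0.07, limma adjusted p = 0.0479). The call of CDCA7 was lost without scrambled replicate 1 (adjusted p = 0.0666), and that of MBD2 without any 1 of 11 arrays, all but scrambled replicate 2 (adjusted p = 0.0536 to 0.168). MBD2 did not pass with the small nucleolar RNA level as a covariate either (adjusted p = 0.104). With sh_37, 4 genes of the list fell and with sh_38, 2 (3 to 5 and 0 to 5 over 22 alternatives), where 7.19% and 3.33% of all genes fell. CDCA7 stood at -0.80 with sh_37, -0.74 with sh_38 and -0.36 with sh_83, the last of which missed the threshold (limma adjusted p = 0.239).

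Of 14 PRC2 partners, 1 fell: PHF19, which guides PRC2 to CpG islands (10.00 ± 0.14 in H2AZ2 arrays and 10.39 ± 0.09 in control arrays, SD, n = 4 each; log2 difference -0.39, SE 0.10, limma adjusted p = 0.0422). In this fit 2.44% of all genes fell and 0.863% rose. The call of PHF19 stood without scrambled replicate 2, sh_38 replicate 2, sh_83 replicate 1 or sh_84 replicate 2, and was lost without any 1 of the other 8 arrays (adjusted p = 0.0511 to 0.188) and with the small nucleolar RNA level as a covariate (adjusted p = 0.0737). By hairpin, 1 of the partners rose and 1 fell with sh_37 and likewise with sh_38. Of all genes 7.19% fell and 5.72% rose with sh_37, and 3.33% fell and 1.28% rose with sh_38, so the sh_37 counts lie near the share of all genes. The 2 calls ran from 1 to 4 with sh_37 and from 0 to 3 with sh_38 over 22 alternatives. None of 17 subunits of PRC1, the Polycomb complex that binds the mark of PRC2, passed over both hairpins; the largest values were BCOR at -0.41 (adjusted p = 0.0626) and PCGF3 at 0.34 (adjusted p = 0.0884). BCOR passed without scrambled replicate 2, sh_38 replicate 1 or sh_83 replicate 1 (adjusted p = 0.034 to 0.0489). None of 20 genes of H3K9 and H4K20 methylation and heterochromatin passed, with SUV39H1, an H3K9 methyltransferase, at -0.39 (adjusted p = 0.107) and SMCHD1, a chromosomal protein of the silent X, at -0.38 (adjusted p = 0.113). With sh_37 alone 4 genes of PRC1 fell and 1 rose, and 4 of the heterochromatin list fell, where 7.19% of all genes fell and 5.72% rose. These counts rest on both sh_37 arrays: the 5 calls of PRC1 were 2 without sh_37 replicate 1 and 0 without replicate 2, and the 4 of the heterochromatin list were 1 without either, and 2 without luciferase replicate 2. With sh_38 1 gene of PRC1 rose (0 to 2 over 22 alternatives) and none of either list fell, where 1.28% of all genes rose and 3.33% fell. With sh_83 none of the genes of the chaperone, methylation, PRC2, PRC1 and heterochromatin lists passed (0.489% of all genes fell).

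Genes that these systems are known to keep silent in many tissues were counted in the same arrays. Of 24 germline genes known to be silenced by DNA methylation, none passed over both H2AZ2 hairpins (median 0.10); DPPA3 was at -0.35 (adjusted p = 0.078, and 0.0282 without sh_38 replicate 1) and MOV10L1 at 0.30 (adjusted p = 0.194). Of 27 developmental regulators known as PRC2 targets, 1 rose and none fell, with a median of 0.07 beside 0.03 for all genes. Of all genes 0.863% rose and 2.44% fell in this fit. The 1 that rose was the endoderm factor GATA6 (8.81 ± 0.08 in H2AZ2 arrays and 8.32 ± 0.17 in control arrays, SD, n = 4 each, log2 difference 0.50, SE 0.12, limma adjusted p = 0.0386). Its call was lost without any 1 of 8 arrays (scrambled replicate 1, sh_84 replicate 2, both luciferase arrays and each array of sh_37 and sh_38; adjusted p = 0.0509 to 0.197) and with the small nucleolar RNA level as a covariate (0.38, adjusted p = 0.0814). With sh_37 alone 3 of these regulators rose and 1 fell, and 1 of the germline genes fell, where 5.72% of all genes rose and 7.19% fell. The 4 calls among the regulators were 2 without sh_37 replicate 1 and 1 without replicate 2, and the germline call was lost without sh_37 replicate 2.

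The members' profiles over the 12 arrays were compared as a description; the points share hairpins and replicates. Pairs among the 9 members other than ASF1A correlated at r = 0.67 (ASF1B and SUZ12) to 0.97 (UHRF1 and DNMT1), whereas ASF1A correlated with the others at -0.05 to 0.34. These r include the shifts between hairpins given above. With each hairpin's mean taken off, ASF1A correlated with the others at 0.01 (UHRF1) to 0.82 (EZH2). Pairs among the 9 then ran from -0.16 (UHRF1 and EZH2) to 0.95 (HELLS and EED), so the contrast with ASF1A was not seen there. EZH2 was the closest to the mean of the 10 (r = 0.98) and ASF1A the farthest (r = 0.25). Each member is itself part of that mean, which raises its r, so these r are not comparable with those of other genes. Among all other genes, ATAD2, an ATPase that binds acetylated histones, was nearest to that mean (r = 0.996, n = 12 arrays), followed by KNTC1, a kinetochore protein, at 0.985, RPS6KA5, a histone kinase, at 0.984, CDCA7 at 0.983, the ubiquitin ligase NEDD4L at 0.983 and FAM111B at 0.982. The log2 changes of ATAD2 were -0.82 with sh_37, -0.69 with sh_38, -0.32 with sh_83, and 0.13 in those labelled sh_84.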

How the data were processed

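Expression was measured on 12 Affymetrix arrays of SK-mel147 RNA, 2 for each of 6 hairpins. The deposited values are log2 expression per probe set made with RMA (background correction, quantile normalization and summary over probes), per the submitters' processing notes. The RMA version and software, and whether probe sets were filtered, are not stated in the sources used here. RMA draws arrays to a common distribution, so changes are relative to it, and it compresses those of dim probe sets. Array medians lay between 7.0 and 7.1 over all probe sets and between 7.67 and 7.72 over the 18417 genes kept, and nothing further was normalized. The platform annotation gave 1 gene symbol to 19460 of 33297 probe sets, several to 1754 and listed no entry for 12083; 19429 matched the RefSeq gene table. The brightest probe set was kept for each of 769 genes with several, which gave 18417 genes. No multi-symbol probe set holds a member, and UHRF1 alone has a second probe set. Array background and scan dates were not analysed here, so signal over background is unknown, and the number of arrays limits the precision.

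Tests used limma 3.58.1 in R 4.3.3 with eBayes, and p-values were adjusted by Benjamini-Hochberg across the 18417 genes, at a threshold of 0.05. Changes by hairpin came from a fit with 6 groups of 2 arrays, in which the control level is the mean of both control hairpins. Changes by target came from a fit with 3 groups of 4 arrays and the hairpin as a random block (consensus correlation 0.157). SE are those of the fits. Percent of control is 2 to the power of the log2 change. The fits were tested on simulated data. Replicate numbers did not pair the arrays: the differences between replicates 1 and 2 correlated between hairpins at -0.469 to 0.677.

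The members and the 12 lists (195 of 210 entries measured) were chosen with earlier results of these data known. Named from each list were up to 4 genes called over both H2AZ2 hairpins with the largest change, or the 2 largest values where none was called; besides these, the members, 4 paralogs, the targeted genes and the 6 genes most like the members' mean. Of the marker lists' largest values, FLG stood at 0.47 and KRT15 at -0.22, LUM at 0.82 and COL1A1 at 0.50, CDH5 at 0.27 and CLDN5 at 0.22, and LYZ at -0.48 and MS4A1 at 0.20 (log2, H2AZ2 minus control), and none of these passed. Alternatives covered each array and hairpin left out, either control hairpin alone, the replicate block, the mean of a gene's probe sets, the dimmest 25% of genes left out, quantile normalization and median centring, a variance trend with robust moderation, array weights, no hairpin block and the small nucleolar RNA level as a covariate. Figures were drawn with matplotlib 3.10.9.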

Additional observations from a re-analysis of the deposited data

Results flagged for a closer look

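EZH2 on the H2AZ2 arrays had 1 array apart from the others: sh_38 replicate 1 stood at 9.67, and its gap to the next array was 0.867 of the whole range of the 4, above Dixon's critical value for 4 samples. Chance flags about 1 in 20 groups, and 30 groups (10 genes in 3 targets) were examined. ASF1B differed between the H2AZ2 hairpins by -0.44 (sh_37 minus sh_38, log2). CHAF1A differed by -0.49 and CHAF1B by -0.48 between the H2AZ2 hairpins and sh_83 (mean of sh_37 and sh_38 minus sh_83, log2), in a direct test of the difference.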

How the results depend on the processing

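Over 1970 combinations of a member, a comparison and an alternative, 1857 kept their side of the threshold, 66 lost a call, 47 gained one and none turned a called change round. The calls of sh_37 stayed between 4 and 7 over 22 alternatives (6 as reported). With sh_38 (5 members) 2 passed against luciferase alone, 2 with the small nucleolar RNA level as a covariate, 3 with array weights, and 0 to 7 with 1 array left out. With sh_83 (0 members) 1 passed with a variance trend and robust moderation, and 0 to 1 with 1 array left out. Between sh_37 and sh_38 (1 member) 0 to 1 passed with 1 array left out. Against sh_83 the H2AZ2 hairpins (2 members) gave 7 with a variance trend and robust moderation, 8 with the covariate, 9 with array weights, and 0 to 4 with 1 array left out. In the refits with the trend, the covariate and array weights ASF1A passed as higher. Calls among all genes were then 1397, 2018 and 2059. Over both H2AZ2 hairpins (5 members) 0 passed against scrambled alone, 0 against luciferase alone, 2 without hairpin sh_37, 8 with array weights, and 2 to 7 with 1 array left out. The fit with the replicate number as a block (replicate block) kept the member counts: 6 with sh_37, 5 with sh_38, 0 with sh_83, 0 with sh_84, 1 between sh_37 and sh_38, 2 against sh_83, 5 over both H2AZ2 hairpins and 0 over both H2AZ1 hairpins; over both H2AZ2 hairpins it ended the calls of MBD2 (adjusted p = 0.0718) and PHF19 (adjusted p = 0.0613), and the numbers do not pair the arrays. CHAF1A and CHAF1B passed over both H2AZ2 hairpins in 23 of 25 alternatives, EZH2 in 20, ASF1B in 18, UHRF1 in 17, DNMT1 in 5, HELLS in 4, SUZ12 in 1, and EED and ASF1A in 0.

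Calls among all genes moved as well: from 922 to 3273 with sh_37 (2377 as reported), 148 to 1431 with sh_38 (848), 6 to 284 with sh_83 (118), 1 to 354 with sh_84 (65), 393 to 1860 between sh_37 and sh_38 (1155), 150 to 2059 against sh_83 (964), 14 to 2524 over both H2AZ2 hairpins (609) and 0 to 17 over both H2AZ1 hairpins (0). Alternatives with fewer arrays have less to estimate the spread from; for the others the cause was not tested. With 2 arrays a hairpin, the SE of a member's change against the controls ran from 0.07 (CHAF1A) to 0.19 (HELLS), so what could be separated differed by gene.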
